A study of Mus musculus with 9 samples.

Results

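The autophagy machinery was followed through 38 genes, taken by name from 24062 gene rows for their known roles in starting autophagy, conjugating ATG8 proteins and recruiting cargo. Earlier results of these data were known when the list was chosen, so its counts describe the list and are no independent test. All 38 passed the filter on low counts, which left 14223 genes for testing. Transcripts were measured by RNA-seq in 9 libraries of mouse embryonic fibroblasts, connective tissue cells grown from embryos, here of strain C57BL/6. The 3 groups of 3 libraries received a control lentivirus (EV in the labels), a lentivirus for p21 (the product of Cdkn1a) or one for p16 (a product of Cdkn2a). Both proteins inhibit cyclin-dependent kinases. RNA was taken on day 4 after delivery, all cells of the 3 groups are labelled non-senescent, and the labels name neither the promoter of the vectors nor the age of the embryos. Nor do the labels say whether replicates were separate cultures or embryos, so the p-values measure the spread between these libraries, some of which may be technical.

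In autophagy a membrane sac closes around cytoplasm and delivers it to the lysosome. The ULK kinase complex starts the process, a lipid kinase complex around Beclin 1 marks the membrane with a phosphoinositide, and WIPI and ATG2 proteins and the scramblases ATG9A and VMP1 expand it. Ubiquitin-like proteins of the ATG8 family (LC3 and GABARAP) are cut by ATG4 proteases, joined to a membrane lipid by ATG7, ATG3 and the ATG12, ATG5 and ATG16L1 complex, and hold cargo through receptors such as p62, the product of Sqstm1. In fibroblasts autophagy is known for its response to starvation and for the removal of damaged organelles and protein aggregates, and the ATG8 proteins and p62 are themselves degraded by it.

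The 5 ATG8 genes are shown first because they moved together in every comparison. Given here are the last 45 coding bases of each gene's first listed GENCODE M21 transcript (GRCm38), 5′ to 3′ and ending with the stop codon, with the codon of the last glycine in capitals. ATG4 cuts after this glycine, and the freed glycine is what is joined to the lipid.
Map1lc3a: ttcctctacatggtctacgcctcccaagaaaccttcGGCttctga
Map1lc3b: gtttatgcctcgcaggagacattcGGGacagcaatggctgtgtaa
Gabarap: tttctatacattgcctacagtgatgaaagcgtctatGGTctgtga
Gabarapl1: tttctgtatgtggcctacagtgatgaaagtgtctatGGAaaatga
Gabarapl2: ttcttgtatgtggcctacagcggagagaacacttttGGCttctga
In 4 of the genes a single codon lies between the glycine and the stop codon, and in Map1lc3b there are 5. The coding sequences held 117 codons before the stop in Gabarap, Gabarapl1 and Gabarapl2, 121 in Map1lc3a and 125 in Map1lc3b.

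The delivered genes matched the labels. Cdkn1a stood 4.46-fold above the control in the p21 libraries and Cdkn2a 45.6-fold above it in the p16 libraries. Cdkn2a was also called higher with p21, at 46.5 against 37.9 CPM on average (1.23-fold, edgeR adjusted p = 0.0111). Cdkn1a was not called with p16 (1.03-fold, edgeR adjusted p = 0.672). Libraries held 44455730 to 63152239 counts. The replicate 3 library of each group carried Xist at 181 to 251 CPM (a gene's counts relative to its library total, made comparable by TMM, the scaling of edgeR), against at most 6.96 CPM in the others. These libraries thus stand apart within each group, and calls that changed with replicates 1 and 2 alone are given beside the genes. Of the 9 fibroblast markers, Col1a1 averaged 13478 CPM in the control, while Dcn and Lum stood at 2.65 and 0.744 CPM. With p21, 3 of the 9 tested rose (Col1a1, Thy1 and Vim, log2 fold changes 0.17, 0.16 and 0.11) and 2 fell (Col3a1 and Pdgfra, -0.32 and -0.99, all in edgeR). The 15 leukocyte markers summed to 24.8 to 41.1 CPM in the control, 44.3 to 61.5 CPM in the p21 libraries and 33.1 to 61.6 CPM in those with p16. None was at 0 in every library, and 6 of 14 tested rose with p21 and 0 of 14 with p16 (edgeR, with 0 falling), where 3 were higher at an unadjusted p under 0.05, 2 with DESeq2 and 0 with limma-voom. With p21 the share called was 55.6% of the fibroblast and 42.9% of the leukocyte markers tested. Of all genes 39.9% were called with p21, 19.8% higher and 20.1% lower, and 11.4% with p16. The leukocyte markers moved in the same comparison as the autophagy genes, and their part in the results was not tested. Endothelial markers summed to 5.22 to 6.00, 7.61 to 9.69 and 5.01 to 7.54 CPM in the control, p21 and p16 libraries, and epithelial markers to 12.9 to 15.7, 15.99 to 16.5 and 13.2 to 14.5 CPM. In bulk RNA a change in the share of a cell type and a change in RNA per cell cannot be told apart.

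With p21, 22 of the 38 autophagy genes rose and 0 fell (edgeR quasi-likelihood test, adjusted p under 0.05 over all genes tested), against a background of 39.9% of all genes called, 19.8% higher and 20.1% lower. Their median log2 fold change was 0.19, while that of all genes was 0.0011. The called genes were 1.08- to 1.49-fold above the control. With p16, 10 rose and 0 fell, against 11.4% of all genes called, 5.8% higher and 5.56% lower, and the median was 0.085. In p21 against p16 directly, 10 were higher with p21 and 0 lower, against 13.1% of all genes called, 6.15% higher and 6.91% lower. No autophagy gene was lower in any of the 3 comparisons at an unadjusted p under 0.05 either (0 of 38 in edgeR), nor at an adjusted one with DESeq2 or limma-voom (0 of 38 each). The libraries of the groups compared did not overlap for 27 of the 38 genes with p21 (49.1% of all genes tested), for 20 with p16 (32.7% of all) and for 18 between p21 and p16 (31.2% of all). The genes without overlap but without a call with p21 were Atg4a and Atg10, which were above the control, and Pik3c3, Atg5 and Stx17, which were below it. Summed over the 38 genes, the level was 2226 to 2256 CPM in the control, 2421 to 2441 CPM with p16 and 2581 to 2661 CPM with p21, with no overlap. Both comparisons with the control share its libraries, so they are not independent of each other.

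**Figure D1:**
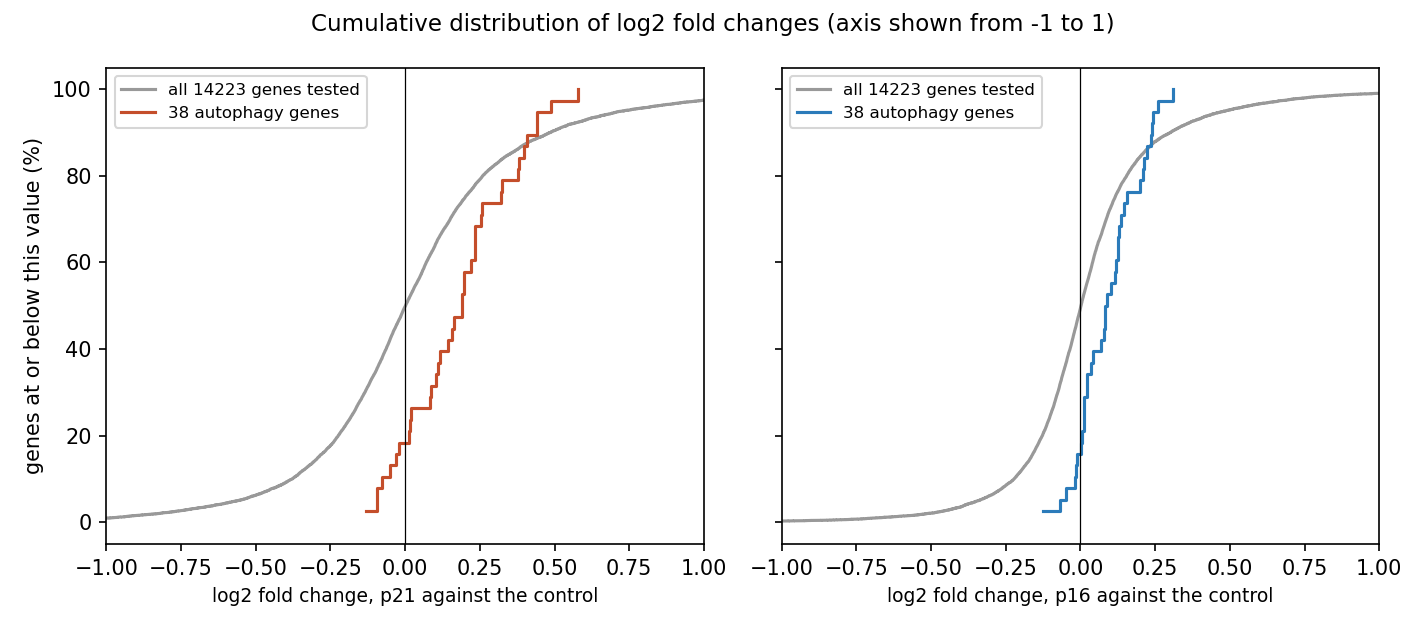
Cumulative share of genes (%, y axis) at or below each log2 fold change against the control (x axis) for p21 (left) and p16 (right), with all 14223 genes tested in grey and the 38 autophagy genes in colour. The autophagy genes lie to the right of all genes through most of the range, with medians of 0.19 and 0.085, and none reaches a log2 change of 1.

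With the replicate number as a block, 14 autophagy genes were called with p16, where the share of all genes called was 21.4% (3044 of 14223) rather than 11.4%. In p21 against p16 the block gave 15 autophagy genes and 22.6% of all genes (3214 of 14223) rather than 13.1%. The counts also changed with the libraries used. With p16, 6 autophagy genes were called without control replicate 2, control replicate 3, p16 replicate 2 or p16 replicate 3, and also with replicates 1 and 2 alone. The share of all genes called in these fits was 6.39%, 8.1%, 5.27%, 6.82% and 10.6%, in that order, against 11.4% with all 9 libraries. In p21 against p16, 2 autophagy genes were called without p21 replicate 1, 4 without p16 replicate 1 or 3 and 5 without p16 replicate 2. There the share of all genes was 7.49% without p21 replicate 1. It was 7.44%, 7.99% and 8.63% without p16 replicate 1, 2 and 3, against 13.1% with all 9 libraries. Scaled by library totals alone, 19 rose and 1 fell with p21, while the split of all genes moved from 2816 higher and 2865 lower to 2173 and 3734. With p16 that scaling called 8 autophagy genes higher and 0 lower, and all genes moved from 825 and 791 to 617 and 1235. In p21 against p16 it called 8 and 0, and all genes moved from 875 and 983 to 735 and 1254.

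The ATG8 family held the largest change of the set with p21. All 5 of its genes rose with p21, rose with p16 and were higher with p21 than with p16. In these comparisons 39.9%, 11.4% and 13.1% of all genes were called. Gabarapl1, a GABARAP-type gene (chromosome 6, 129533160 to 129542346 in GRCm38), stood at 53.7, 57.03 and 52.8 CPM in the control libraries, 66.8, 65.9 and 63.3 CPM with p16 and 85.7, 75.99 and 82.5 CPM with p21. Every p16 library lay above every control library and below every p21 library. It was 1.49-fold higher with p21 (log2 fold change 0.58 ± 0.052, edgeR adjusted p = 4e-06) and 1.20-fold higher with p16 (0.26 ± 0.052, adjusted p = 0.00814). Of its exon bases 28.3% are shared with 1700101I11Rik on the other strand, and the library kit keeps no strand, so reads of both cannot be told apart.

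Map1lc3b encodes LC3B, the ATG8 protein most used to mark autophagosomes (chromosome 8, 121590361 to 121598760). It was measured at 109, 115 and 109 CPM in the control libraries, 128, 131 and 133 CPM with p16 and 159, 147 and 161 CPM with p21, again without overlap between any groups (log2 fold change 0.49 ± 0.041, edgeR adjusted p = 2.19e-06 with p21; 0.23 ± 0.041 and 0.00384 with p16). Its relative Map1lc3a (chromosome 2, 155276297 to 155278073) had 44.2, 46.4 and 41.8 CPM in the control libraries, 49.6, 51.7 and 52.2 CPM with p16 and 59.2, 56.1 and 57.4 CPM with p21 (0.38 ± 0.048 with p21, edgeR adjusted p = 5.3e-05, and 0.21 ± 0.048 with p16, adjusted p = 0.0143). The groups were ordered alike in both LC3 genes, control lowest and p21 highest.

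Gabarapl2 (chromosome 8, 111940703 to 111953612), which encodes GATE-16, showed 40.03, 38.3 and 37.1 CPM in the control libraries, 43.95, 44.7 and 44.01 CPM with p16 and 52.5, 48.04 and 51.5 CPM with p21 (0.40 ± 0.046 with p21, edgeR adjusted p = 3.24e-05, and 0.20 ± 0.046 with p16, 0.0166). Gabarap, the founding member of its branch (chromosome 11, 69991143 to 69994951), changed least of the 5 by estimate, at 195, 201.04 and 200.5 CPM in the control libraries, 209.5, 218 and 219.6 CPM with p16 and 239, 232 and 242 CPM with p21 (0.26 ± 0.032 with p21, edgeR adjusted p = 4.79e-05, and 0.12 ± 0.032 with p16, 0.0323). In these genes too the libraries of the 3 groups did not overlap. All 5 p21 calls, and the p16 calls of Map1lc3b and Gabarapl1, held under each of the 14 alternatives run.

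The other p16 calls of the family were less firm. Map1lc3a was not called without control replicate 3, p16 replicate 2 or p16 replicate 3 (edgeR adjusted p up to 0.0645), nor with replicates 1 and 2 alone (0.0690). Gabarapl2 lost its call when replicate 2 or 3 of either the control or p16 was left out (edgeR adjusted p up to 0.0786) and with replicates 1 and 2 alone (0.0579). For Gabarap it was lost when any 1 of the control libraries or p16 replicate 2 or 3 was left out (edgeR adjusted p up to 0.140), with library totals, with no filter and with replicates 1 and 2 alone (edgeR adjusted p up to 0.0928).

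**Figure D2:**
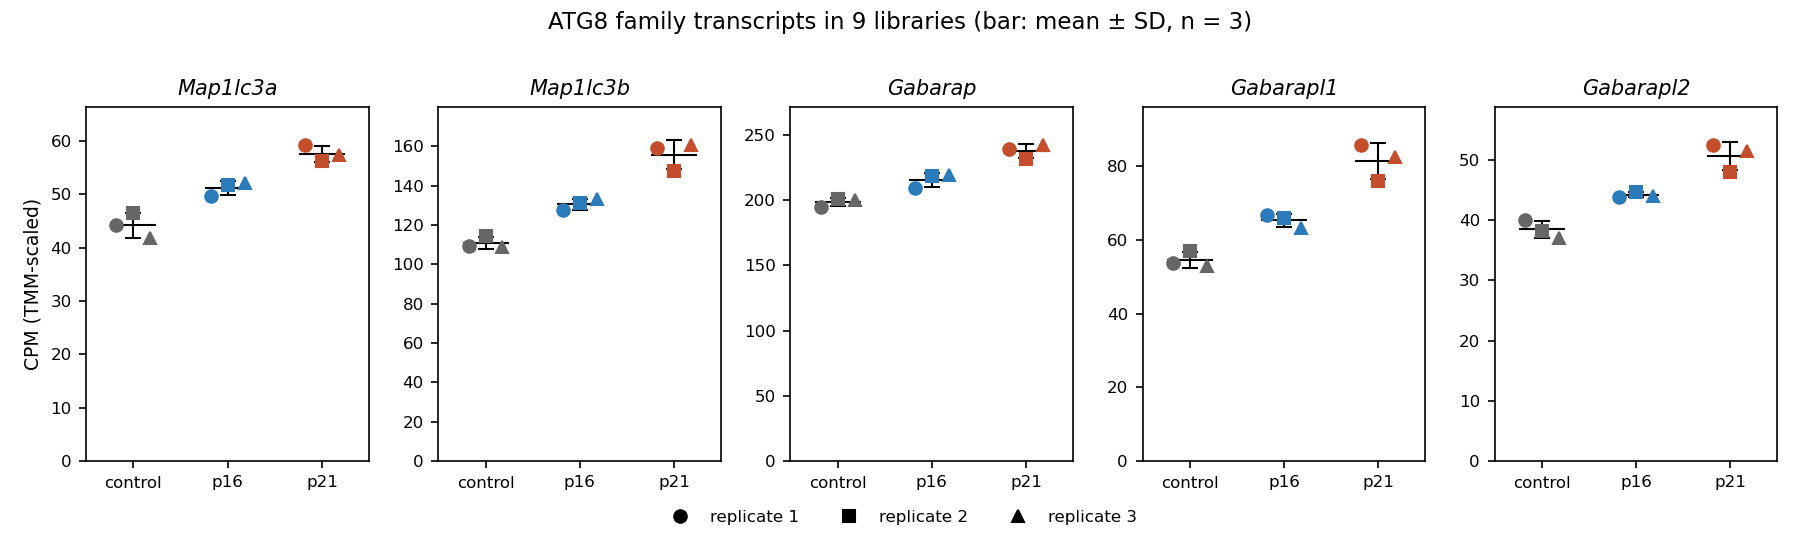
CPM (TMM-scaled, y axes from 0) of the 5 ATG8 genes in the control, p16 and p21 libraries (x axis). Symbols are libraries, marked by replicate number, and bars give the mean ± SD (n = 3). In each panel the p16 libraries lie between the control and the p21 libraries, as for Map1lc3b at 111, 131 and 156 CPM on average.

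Of the 5 cargo receptors, 4 rose with p21 and 2 with p16. These shares, 80% and 40%, stand beside 39.9% and 11.4% of all genes called. Sqstm1, which encodes the ubiquitin-binding receptor p62 (chromosome 11, 50199366 to 50210827), stood at 293, 305 and 298 CPM in the control libraries, 381, 364 and 364 CPM with p16 and 402, 382 and 379 CPM with p21. It was the gene of the set with the largest change with p16, 1.24-fold (log2 fold change 0.31 ± 0.034, edgeR adjusted p = 0.000349), and was 1.30-fold higher with p21 (0.38 ± 0.034, adjusted p = 3.79e-06). The p16 and p21 libraries overlapped for this gene: the direct difference was 0.069 ± 0.034 (edgeR adjusted p = 0.214), with a 95% interval of -0.0049 to 0.14. Sqstm1 shares 17.3% of its exon bases with Mrnip on the other strand.

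Calcoco1, which encodes a receptor for the endoplasmic reticulum (chromosome 15, 102706777 to 102722178), was at 30.4, 32.5 and 32.04 CPM in the control libraries, 37.7, 38.5 and 35.9 CPM with p16 and 44.4, 40.7 and 43.7 CPM with p21. Its 3 groups did not overlap (log2 fold change 0.44 ± 0.048, edgeR adjusted p = 1.98e-05 with p21, and 0.24 ± 0.048 with p16, adjusted p = 0.00845). Nbr1, whose product works beside p62, had 88.8, 86.9 and 91.1 CPM in the control libraries, 92.6, 92.9 and 96.2 CPM with p16 and 101, 103 and 102 CPM with p21. Optn, which encodes the receptor optineurin, had 14.1, 13.2 and 12.8 CPM in the control libraries, 14.4, 15.2 and 14.8 CPM with p16 and 15.7, 15.7 and 15.8 CPM with p21. Both rose with p21 (Nbr1 0.20 ± 0.036, edgeR adjusted p = 0.000935; Optn 0.23 ± 0.06, 0.00811) and did not pass with p16 (0.078 ± 0.036 and 0.15 ± 0.06, edgeR adjusted p = 0.193 and 0.141), though the p16 libraries of both lay above all control libraries. The call of Optn with p21 was lost with replicates 1 and 2 alone (edgeR adjusted p = 0.0662). Tax1bp1, a further ubiquitin-binding receptor, averaged 129.6 ± 4.82 CPM (SD, n = 3) in the control and 138 ± 6.64 CPM with p21 and passed in no comparison (0.087 ± 0.044, edgeR adjusted p = 0.136 with p21).

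**Figure D3:**
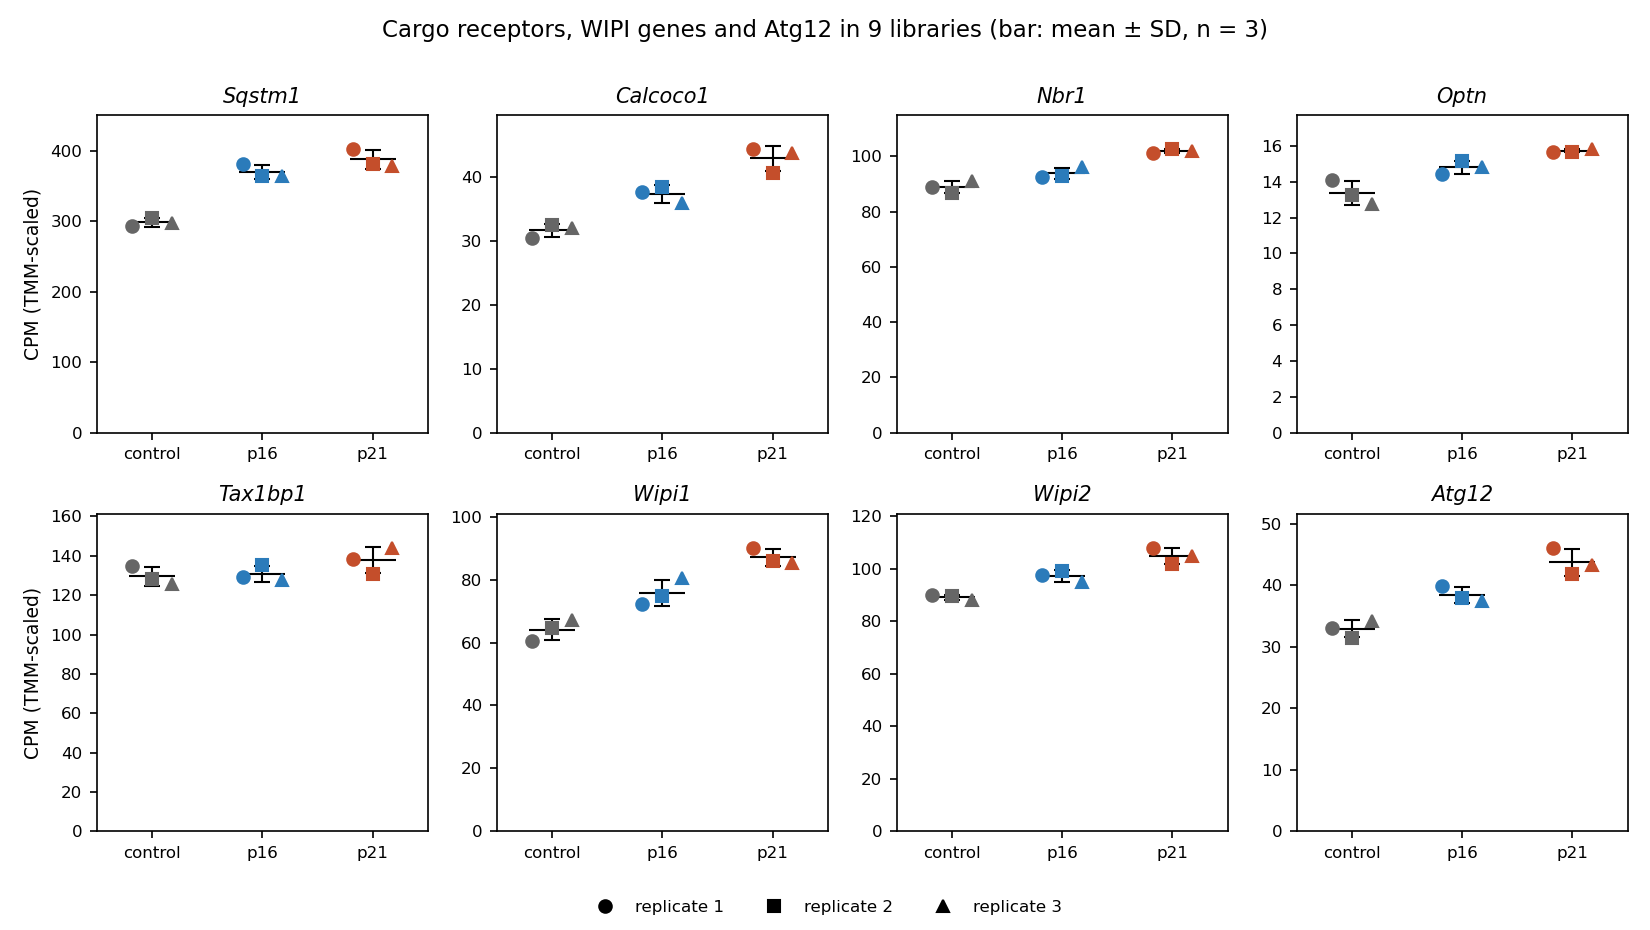
CPM (TMM-scaled, y axes from 0) of the 5 cargo receptors, both WIPI genes and Atg12 by library, drawn as for the ATG8 genes (bars: mean ± SD, n = 3). The p16 and p21 libraries overlap for Sqstm1, whereas in the panels of Calcoco1, Wipi1 and Atg12 the p16 libraries lie between the others and in that of Tax1bp1 the groups overlap.

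In the ULK complex, 3 of 5 genes rose with p21 in edgeR (60%, against 39.9% of all genes called). With p16 0 passed, where 11.4% of all genes did. There 3 had an unadjusted edgeR p under 0.05, and 0 passed with DESeq2 or limma-voom. Ulk2, one of the pair of kinases that start autophagy, was at 56.6, 59.8 and 60.7 CPM in the control libraries, 61.4, 67.6 and 65.7 CPM with p16 and 70.3, 67.6 and 73.2 CPM with p21 (log2 fold change 0.25 ± 0.05, edgeR adjusted p = 0.00166 with p21). Ulk1, the other kinase, was at 52.6, 54.5 and 56.4 CPM in the control libraries, 59.6, 56.8 and 60.6 CPM with p16 and 62.03, 66.5 and 58.8 CPM with p21 (0.20 ± 0.052, adjusted p = 0.00958). The p21 libraries were above all control libraries in both kinases. Atg101, which encodes a small partner of ATG13, was at 20.2, 18.7 and 20.6 CPM in the control libraries, 23.6, 21.2 and 21.5 CPM with p16 and 24.5, 21.4 and 23.4 CPM with p21 (0.22 ± 0.065, edgeR adjusted p = 0.0167), and its p21 call failed when control replicate 2 or p21 replicate 1 was left out (edgeR adjusted p up to 0.0831). Rb1cc1, the FIP200 scaffold, was at 129, 124 and 117 CPM in the control libraries, 121, 130.4 and 124 CPM with p16 and 134, 127 and 139 CPM with p21, with overlapping groups (0.11 ± 0.048, edgeR adjusted p = 0.0852 with p21). With the replicate number as a block it passed (0.0358), as it did with control replicate 1 or p21 replicate 2 left out (edgeR adjusted p up to 0.0471). Atg13, the regulatory subunit, stayed between 30.1 and 34.3 CPM in all libraries and was not called. With p16, Ulk2 and Atg101 had log2 fold changes of 0.14 ± 0.05 and 0.16 ± 0.065 (edgeR adjusted p = 0.106 and 0.148), and both passed with the block (0.0237 and 0.0468).

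Of the 6 genes of the phosphoinositide 3-kinase complex, 3 were called with p21 (50%, against 39.9% of all genes). The adaptors Atg14 and Uvrag and the scaffold Becn1 rose, and the catalytic subunit Pik3c3, its partner Pik3r4 and the regulator Ambra1 did not pass. Uvrag, the adaptor that acts at endosomes, was at 40.6, 37.3 and 36.4 CPM in the control libraries, 43.3, 41.4 and 40.5 CPM with p16 and 50.7, 47.001 and 45.3 CPM with p21 (log2 fold change 0.32 ± 0.056, edgeR adjusted p = 0.000618 with p21). Atg14, the adaptor that directs the kinase to autophagy, was at 8.90, 9.43 and 9.65 CPM in the control libraries, 10.8, 10.497 and 11.1 CPM with p16 and 11.9, 11.8 and 11.4 CPM with p21 (0.33 ± 0.068, adjusted p = 0.00222). In both adaptors every p21 library exceeded every control library. Of the exon bases of Uvrag 17.6% overlap Gm45187 on the other strand. Becn1, which encodes Beclin 1, was at 64.9, 68.7 and 67.6 CPM in the control libraries, 68.6, 69.3 and 69.4 CPM with p16 and 75.6, 75.8 and 74.1 CPM with p21 (0.16 ± 0.039, edgeR adjusted p = 0.00512), and 43.9% of its exon bases are also annotated to Cntd1 on the other strand. Ambra1 was at 39.4, 40.5 and 40.2 CPM in the control libraries, 40.7, 38.1 and 43.1 CPM with p16 and 36.02, 40.6 and 35.9 CPM with p21 (-0.095 ± 0.058, edgeR adjusted p = 0.215), and without p21 replicate 2, the one p21 library not below the control libraries, it was lower with p21 (edgeR adjusted p = 0.0376). Pik3c3 and Pik3r4 differed by -0.077 ± 0.055 and 0.082 ± 0.055 with p21 (edgeR adjusted p = 0.290 and 0.259). With p16 0 of the 6 passed in edgeR, DESeq2 or limma-voom, and 2 had an unadjusted edgeR p under 0.05. In edgeR 11.4% of all genes passed with p16. With the block, Atg14 (0.21 ± 0.068, edgeR adjusted p = 0.0652 without and 0.0462 with it) and Uvrag (0.13 ± 0.056, 0.158 and 0.0317) were higher with p16.

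Among the 6 genes of membrane expansion, Wipi1, Wipi2 and Atg2a rose with p21, and Wipi1 and Wipi2 with p16. The shares called were 50% and 33.3%, against 39.9% and 11.4% of all genes. Wipi1, which encodes a reader of the phosphoinositide mark (chromosome 11, 109573331 to 109611967), was at 60.4, 64.5 and 67.2 CPM in the control libraries, 72.3, 74.8 and 80.4 CPM with p16 and 90.1, 85.9 and 85.2 CPM with p21. The groups did not overlap, and the gene was 1.36-fold higher with p21 (log2 fold change 0.44 ± 0.052, edgeR adjusted p = 3.7e-05) and 1.18-fold with p16 (0.24 ± 0.052, adjusted p = 0.0118; 0.0554 without control replicate 1). Wipi2, whose product recruits ATG16L1, was at 89.97, 89.5 and 88.2 CPM in the control libraries, 97.8, 99.3 and 94.8 CPM with p16 and 108, 102 and 105 CPM with p21 (0.23 ± 0.037 with p21, edgeR adjusted p = 0.00037). Its p16 call (0.13 ± 0.037, edgeR adjusted p = 0.0495) was lost without any 1 of the 6 libraries (up to 0.186) and with RLE scaling (that of DESeq2), library totals, no filter or replicates 1 and 2 alone (up to 0.109). Atg2a, which encodes a lipid transfer protein, was at 44.1, 47.8 and 48.02 CPM in the control libraries, 49.7, 48.3 and 50.02 CPM with p16 and 57.8, 56.3 and 50.3 CPM with p21 (0.23 ± 0.056 with p21, edgeR adjusted p = 0.00543).

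The other lipid transfer gene, Atg2b, and both scramblase genes were the 3 least changed of all 38 with p21 by estimate. Atg2b was at 57.9, 57.1 and 57.8 CPM in the control libraries, 59.5, 54.1 and 57.2 CPM with p16 and 56.3, 56.8 and 57.2 CPM with p21. Atg9a, whose product rides on small vesicles, was at 67.8, 65.6 and 66.6 CPM in the control libraries, 66.01, 66.5 and 67.7 CPM with p16 and 70.2, 68.3 and 63.4 CPM with p21. Vmp1, a protein of the endoplasmic reticulum, was at 145, 147 and 145 CPM in the control libraries, 139, 138 and 139.5 CPM with p16 and 141, 152 and 149 CPM with p21. Their p21 libraries overlapped the control libraries, with log2 fold changes of -0.02 ± 0.043, 0.014 ± 0.045 and 0.015 ± 0.035 (edgeR adjusted p = 0.747, 0.838 and 0.756). All Vmp1 libraries with p16 lay below the control libraries, but this did not pass (-0.069 ± 0.035, edgeR adjusted p = 0.231). Atg9a shares 31.8% of its exon bases with Gm29253 on its own strand, and Vmp1 shares 2.38% with the microRNA gene Mir21a.

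Of the 4 ATG4 proteases, which prime ATG8 proteins and later free them from the lipid, 1 passed with p21. This share of 25% lay below the 39.9% of all genes called. Atg4b, the most active of them on LC3B, was at 50.01, 51.2 and 50.6 CPM in the control libraries, 52.1, 53.01 and 56.5 CPM with p16 and 55.5, 55.2 and 53.9 CPM with p21. It passed with p21 (log2 fold change 0.12 ± 0.043, edgeR adjusted p = 0.0484), but the call was lost without any 1 of the 6 libraries (edgeR adjusted p up to 0.124) and with library totals, no filter, only the 2 groups compared or replicates 1 and 2 alone (up to 0.239). Atg4a was at 8.45, 8.37 and 8.93 CPM in the control libraries, 8.82, 9.80 and 9.45 CPM with p16 and 9.99, 10.03 and 9.34 CPM with p21, with p21 libraries above the control ones but not past the test (0.19 ± 0.075, edgeR adjusted p = 0.0619). Atg4c was at 9.22, 8.99 and 8.54 CPM in the control libraries, 8.69, 9.59 and 8.17 CPM with p16 and 8.45, 9.07 and 9.65 CPM with p21. Atg4d was at 10.2, 9.40 and 9.74 CPM in the control libraries, 9.15, 8.56 and 9.25 CPM with p16 and 10.1, 8.91 and 7.81 CPM with p21. Both overlapped between p21 and the control and were called in no comparison, and Atg4d shares 19.3% of its exon bases with Kri1 on the other strand.

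In the conjugation system, 3 of 6 genes rose with p21 (50%, against 39.9% of all genes) and 1 with p16 (16.7%, against 11.4%). That gene was Atg12, the ubiquitin-like protein joined to ATG5, at 33.2, 31.5 and 34.2 CPM in the control libraries, 39.97, 37.96 and 37.4 CPM with p16 and 46.1, 41.9 and 43.2 CPM with p21. Its groups did not overlap (log2 fold change 0.41 ± 0.05, edgeR adjusted p = 4.86e-05 with p21, and 0.22 ± 0.05 with p16, adjusted p = 0.0153). The p16 call of Atg12 was lost without control replicate 2 or p16 replicate 1 (edgeR adjusted p up to 0.0665). Atg5, the partner of ATG12, was not called beside it. It was at 28.97, 30.3 and 29.4 CPM in the control libraries, 29.2, 28.8 and 27.8 CPM with p16 and 28.5, 25.5 and 28.9 CPM with p21, below the control in all p21 libraries but not past the test (-0.10 ± 0.053, edgeR adjusted p = 0.173), except with library totals, where it was lower (0.0386).

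Atg3, the enzyme that hands ATG8 proteins to the lipid, was at 35.8, 36.7 and 37.3 CPM in the control libraries, 36.9, 38.8 and 40.5 CPM with p16 and 39.3, 43.4 and 39.8 CPM with p21. Atg16l1, which places the complex on the membrane, was at 36.5, 37.99 and 38.1 CPM in the control libraries, 36.9, 38.1 and 37.98 CPM with p16 and 39.998, 44.5 and 39.96 CPM with p21. Both passed with p21 (Atg3 0.16 ± 0.051, edgeR adjusted p = 0.0254; Atg16l1 0.14 ± 0.049, 0.0330) and not with p16. Each of these calls was lost without any 1 of the control libraries or p21 replicate 2 (edgeR adjusted p up to 0.0852 and 0.105) and with library totals (0.114 and 0.153). That of Atg16l1 was also lost with only the 2 groups fitted. Atg7, the enzyme that activates both ubiquitin-like systems, and Atg10, which acts on ATG12, had 0.10 ± 0.06 and 0.19 ± 0.11 with p21 (edgeR adjusted p = 0.189 and 0.196). Atg10 had the lowest CPM of the set, 3.91 ± 0.0956 in the control (SD, n = 3). Stx17, which encodes the syntaxin of autophagosome fusion with the lysosome, was at 27.2, 27.3 and 26.6 CPM in the control libraries, 26.1, 26.7 and 27.6 CPM with p16 and 26.6, 26.4 and 25.1 CPM with p21 and was not called (-0.052 ± 0.044 with p21, edgeR adjusted p = 0.376).

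**Figure D4:**
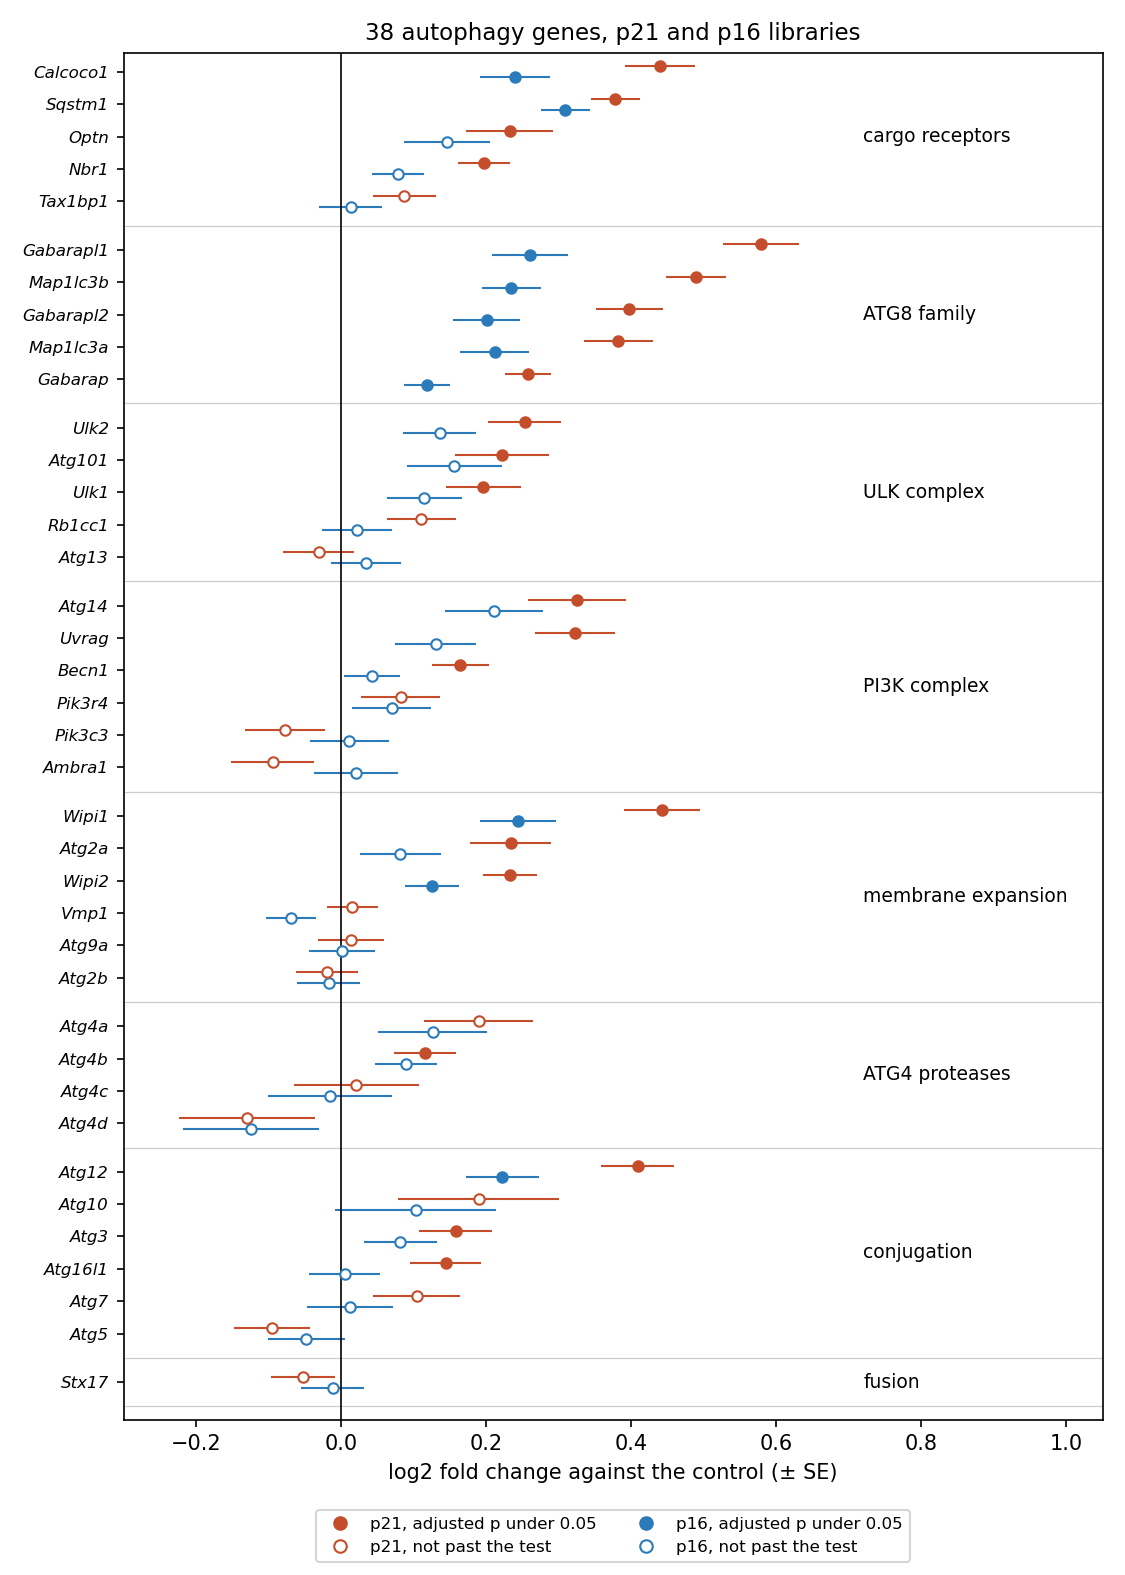
Log2 fold change against the control (x axis, ± SE) of the 38 autophagy genes (y axis, by role), p21 in orange and p16 in blue, each from 3 libraries a group. Filled points passed the edgeR test at an adjusted p under 0.05. All filled points, 22 for p21 and 10 for p16, lie above 0.

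The direct comparison sets p21 against p16 libraries, without the shared controls. The p16 libraries carry sample numbers apart from those of the control and p21 libraries, which run on from each other. Whether the p16 libraries were also handled apart is not known from the titles and was not tested. The genes higher with p21 were the 5 ATG8 genes, Calcoco1, Wipi1, Atg12, Uvrag and Nbr1. Gabarapl1 (0.32 ± 0.052, edgeR adjusted p = 0.00182) and Map1lc3b (0.25 ± 0.041, 0.00159) held their calls under all 14 alternatives. Among the rest, Gabarap (0.14 ± 0.032) lost its call without p21 replicate 1 or p16 replicate 1 and Gabarapl2 (0.20 ± 0.046) without these or p16 replicate 3 (edgeR adjusted p up to 0.0672 and 0.0619). The calls of Calcoco1 (0.20 ± 0.048; without p21 replicate 1 or 3 or p16 replicate 3, edgeR adjusted p up to 0.0793) and Wipi1 (0.20 ± 0.052; without p21 replicate 1 or p16 replicate 1 or 2, 0.103) were lost likewise. So were those of Atg12 (0.19 ± 0.05; without p21 replicate 1 or 3 or p16 replicate 2 or 3, edgeR adjusted p up to 0.110) and Map1lc3a (0.17 ± 0.047; without any 1 of these libraries but p21 replicate 2, 0.119). With replicates 1 and 2 alone Calcoco1 and Atg12 were not called (edgeR adjusted p = 0.0936 and 0.0686).

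Uvrag (0.19 ± 0.055) was not called when p21 replicate 1 or 2, or any p16 library, was left out (edgeR adjusted p up to 0.146), nor with library totals or only the 2 groups. Nbr1 (0.12 ± 0.036) was not called without any 1 of the 6 libraries (edgeR adjusted p up to 0.151), nor with library totals, no filter or only the 2 groups. With the replicate block Becn1, Ulk2, Wipi2, Atg2a and Atg16l1 were also higher with p21 than with p16 (edgeR adjusted p = 0.0232, 0.0460, 0.0354, 0.0312 and 0.0313, against 0.0594, 0.152, 0.0799, 0.0960 and 0.0814 without it). Becn1 passed with DESeq2 and limma-voom too (highest adjusted p of the 3 = 0.0406). Atg2a passed without p21 replicate 3 (edgeR adjusted p = 0.0229) and with replicates 1 and 2 alone (0.0133). Group means ran from the control over p16 to p21 in 29 of 38 genes. In 13 of them the libraries did not overlap between neighbouring groups: the 5 ATG8 genes, Calcoco1, Nbr1, Optn, Atg14, Wipi1, Wipi2, Atg2a and Atg12. The share of all genes tested with either pattern was not computed, so these counts describe the 38 genes alone. The ATG8 genes, Calcoco1, Wipi1 and Atg12 were called higher in all 3 comparisons, 8 of 38 (21.1%), against 379 of 14223 tested genes (2.66%).

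Compared between genes, levels were taken per kilobase of exon (the TMM-scaled CPM divided by the length of all annotated exons together, CPM per kb). On this scale Gabarap and Sqstm1 were the most abundant of the set in the control, at 108 and 88.9 CPM per kb, followed by Vmp1 at 37.7 and Map1lc3a at 37.4 CPM per kb. Atg4d (1.35), Atg14 (2.16) and Atg10 (2.28) were the lowest. The 22 genes that rose with p21 had a median control level of 9.69 CPM per kb and the 16 others 4.52 CPM per kb. Their median SE on the log2 scale was 0.0496 and 0.0538. The 5 ATG8 genes together reached 204 ± 4.10 CPM per kb in the control, 229 ± 3.93 with p16 and 261 ± 8.15 with p21 (SD, n = 3). Gabarap made up 52.97% ± 1.01 of this sum in the control and 49.5% ± 0.676 with p21. The level of Map1lc3b depends on the length used: 14.8 ± 0.415 CPM per kb over all 7517 exon bases but 43.8 ± 1.23 CPM per kb over the 2532 bases of its first listed transcript, which puts it above Map1lc3a (39.7 ± 2.07) rather than below.

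A further list of 50 pathway genes, of which 48 were tested, covers regulators, receptors for single organelles and the late steps. With p21, 22 rose and 5 fell, with p16 6 rose and 0 fell, and 6 were higher with p21 than with p16 with 0 lower (edgeR; lower at an unadjusted p under 0.05 were 2 and 3, and with DESeq2 or limma-voom 0; medians 0.12, 0.049 and 0.051). With p21 the list's share called was 56.2%, against 39.9% of all genes. With p16 it was 12.5% and in p21 against p16 12.5%, near the 11.4% and 13.1% of all genes. Of the regulators, 5 rose and 2 fell of 17 tested with p21, a share called of 41.2% that is near that of all genes. Tfeb, which encodes a transcription factor of lysosome and autophagy genes, went from 3.52 ± 0.277 to 4.74 ± 0.516 CPM (SD, n = 3; log2 fold change 0.42 ± 0.13, edgeR adjusted p = 0.0184). Its relatives Tfe3 and Mitf did not pass (0.016 ± 0.052 and 0.037 ± 0.19). Akt1s1, a brake on mTORC1 (0.24 ± 0.039), Sh3glb1, a membrane-bending partner of Beclin 1 through UVRAG (0.12 ± 0.032), and Bcl2l1, which binds Beclin 1 (0.23 ± 0.063), also rose. So did Mtor, the kinase of both mTOR complexes (0.13 ± 0.046), named after its value was seen. The regulators that fell, also named afterwards, were Foxo3, a transcription factor of stress and starvation genes (-0.22 ± 0.068), and Mlst8, a subunit of both mTOR complexes (-0.20 ± 0.065).

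Of the receptors and regulators for single organelles, 9 rose and 2 fell of 15 tested with p21 (73.3% called, against 39.9% of all genes). With p16, 3 rose (20%, against 11.4%). They were Ncoa4, Tex264 and Pink1, the mitophagy kinase, the last named after its value was seen. Ncoa4, the ferritin receptor, rose from 88.5 ± 2.66 to 110.2 ± 0.949 CPM (log2 fold change 0.32 ± 0.038, edgeR adjusted p = 4.39e-05). Tex264, a receptor for the endoplasmic reticulum (0.32 ± 0.042), Stbd1, which binds glycogen (0.44 ± 0.078), and Rtn3, a further receptor for the endoplasmic reticulum (0.21 ± 0.038), rose as well. Wdfy3, an adaptor for protein aggregates (-0.17 ± 0.056), and Phb2, a mitochondrial prohibitin (-0.11 ± 0.033), fell, and were named after their values were seen. Of the late-acting genes, 8 rose and 1 fell of 16 tested with p21 (56.2% called, against 39.9% of all genes). Wdr45, the WIPI4 gene, rose from 15.98 ± 0.869 to 22.9 ± 0.7 CPM (log2 fold change 0.52 ± 0.058, edgeR adjusted p = 2.27e-05), the largest change of the list, and Snap29, the SNARE partner of syntaxin 17, by 0.32 ± 0.043. Rab7, the GTPase of late endosomes (0.25 ± 0.038), and Vps41, a subunit of the HOPS tether (0.24 ± 0.039), rose too. The 1 that fell, likewise named afterwards, was Vps16, another HOPS subunit (-0.21 ± 0.044). Wdr45 and Snap29 also rose with p16 (edgeR adjusted p = 0.00532 and 0.0325), as did Akt1s1 of the regulators (0.0283).

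Promoter windows (250 bases before to 50 after the start, RefSeq, GRCm38.p6) were found for 32 of the 38 genes and searched on both strands for 4 motifs, as a description. The E-box CACGTG, bound by TFEB and its relatives among others, was in 4 of 32 (12.5%: Atg3, Atg5, Atg7 and Atg14) against 11.5% of the 10565 tested genes with a window. Its longer form TCACGTGA, the core of the CLEAR element, was in Atg3 alone (2.09% of tested genes). The antioxidant response element TGACNNNGC was in 5 of 32 (15.6% against 17%: Atg13, Map1lc3b, Tax1bp1, Ulk2 and Vmp1), and the FOXO motif GTAAACA in 0 of 32 (against 2.98%). Of the genes with an E-box, Atg3 and Atg14 rose with p21 and Atg5 and Atg7 were not called. Map1lc3b and Ulk2, which hold the antioxidant response element, rose, and Atg13, Tax1bp1 and Vmp1 were not called. The stretch of the Atg3 promoter with both E-boxes is shown because it alone holds the longer form. Capitals mark CACGTG, and the second lies within TCACGTGA.
Atg3 (chr16:45158719-45158779, plus strand): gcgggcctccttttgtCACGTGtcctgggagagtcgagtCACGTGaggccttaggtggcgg
A match of letters is no measure of binding.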

How the data were processed

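RNA of 9 libraries (3 groups of 3) was measured. The deposited values were raw counts per gene symbol. Per the submitters' processing notes, the tools were TopHat2 2.0.14, Bowtie2 2.2.6 and featureCounts 1.4.6 of Subread, with the build mm10. The annotation and strand setting are not given in the sources used here. Per the labels' protocols the library kit was TruSeq RNA v2, which keeps no strand.

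Counts were tested with edgeR 4.0.16 in R 4.3.3: genes kept by filterByExpr (minimum count 10, minimum total 15), TMM scaling and a quasi-likelihood fit of all 9 libraries, with 6 residual degrees of freedom. P-values were adjusted by Benjamini-Hochberg over 14223 genes per comparison, and a gene was called at an adjusted p under 0.05. Errors of log2 fold changes are standard errors, and CPM errors are SDs. The scripts were tested on simulated counts.

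Alternatives were RLE scaling, library totals only, no filter, DESeq2 1.42.0, limma-voom (limma 3.58.1), only the groups compared, a replicate block, replicates 1 and 2 alone, and each library left out. Replicate numbers appear in the sample titles. Same-numbered libraries deviated together from their group means (r across genes 0.126 to 0.361, against -0.246 to 0.106 for other pairs), so the numbers were taken to pair the samples. This was strongest among the replicate 3 libraries (0.332 to 0.361). Among replicates 1 and 2 same-numbered pairs had 0.126 to 0.202 and other pairs 0.0477 to 0.106. The fit behind the calls, SEs and p-values has no block and so leaves this pairing out. The block is printed beside a result where it changes a call.

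The 38 genes and all gene lists were chosen with earlier results of these data known. Values in every library are given, per role, for the up to 4 genes with the smallest adjusted p with p21, for all genes called in the other comparisons and for the 3 least changed with p21. Of the pathway lists, up to 4 genes each by the same measure are named, plus Tfeb, Tfe3 and Mitf. Positions and exon lengths came from GENCODE M21, promoters from RefSeq (GRCm38.p6), and 4 pathway and marker genes were matched under older symbols. Plots were drawn with matplotlib 3.10.9.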

Additional observations from a re-analysis of the deposited data

How the results depend on the processing

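Over the 3 comparisons, 14 alternatives each were run on the 38 genes, and no called gene changed direction. Of the calls, 17 of 22 with p21, 4 of 10 with p16 (Calcoco1, Gabarapl1, Map1lc3b and Sqstm1) and 2 of 10 in p21 against p16 (Gabarapl1 and Map1lc3b) were made under all of them. With 1 library left out, the autophagy genes called numbered 18 to 21 with p21, 6 to 8 with p16 and 2 to 8 in p21 against p16, and the counts over all genes were 4617 to 5409, 759 to 1167 and 1074 to 1782. With replicates 1 and 2 alone, 6 autophagy genes and 10.6% of all genes were called with p16. With the replicate block, all genes called rose to 6856 with p21 (48.2%, against 39.9% without the block), 3044 with p16 and 3214 in p21 against p16. The autophagy genes called with the block were 23, 14 and 15 in the 3 comparisons. The block changed no other call among the 38 genes than those given beside them. Fits without 1 library have fewer samples. P-values cover only the spread between these libraries.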
